A study of Mus musculus with 6 samples.

Results

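Regeneration transcription factors are DNA-binding proteins known to drive the response of a neuron to axon injury, and 9 of their genes were followed here in sensory ganglia after kidney injury: Atf3, Jun, Sox11, Klf6, Klf7, Smad1, Stat3, Myc and Creb1. The genes were chosen by name for that known role, with earlier results of these data known. All 9 were present among the 57180 genes of the count table, and all 9 passed the filter on low counts, which kept 16346 genes. Dorsal root ganglia, which hold the cell bodies of sensory neurons, had been taken from thoracic level 8 to lumbar level 2 of 6 wild-type mice. In 3 mice with renal ischemia-reperfusion (I/R) the left renal pedicle, which carries the kidney's vessels and nerves, had been clamped for 28 min and released, and the right kidney had been taken out. The other 3 were sham mice, which per the labels had the same operation except for the clamp, although the right kidney is not mentioned separately for them. All ganglia were collected 24 h after surgery, and no strain, sex or age is stated. Both groups shared the anesthesia and the flank incision. Library totals ran from 19092650 to 22010227 expected counts. Sham 1 and sham 3 stood apart in skeletal muscle RNA: 10 muscle markers, of which Pvalb is also a gene of large sensory neurons, summed to 68.6, 53.8 and 43.4 CPM (counts scaled to a common library size) in I/R 1 to 3 and to 599, 54.4 and 345 CPM in sham 1 to 3.

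Background on these factors comes from work on cut or crushed peripheral nerves. A damaged axon sends signals back to the cell body, among them the DLK and JNK kinase cascade, cytokines that act through the receptor chain gp130 and the kinase JAK, and bone morphogenetic proteins (BMPs). These signals reach transcription factors by phosphorylation as well as by new transcription: Jun is phosphorylated by JNK, Stat3 by JAK kinases, Smad1 by BMP receptors and Creb1 by cAMP-dependent kinase. Messenger RNA, which was measured here, does not report that phosphorylation.

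Only 2 of the 9 factors were called, both higher in I/R ganglia. Atf3 rose 13.8-fold and Sox11 rose 3.12-fold. Calls here mean an adjusted p under 0.05 in edgeR's quasi-likelihood test, with p adjusted over all 16346 genes. By the same rule 0.722% of tested genes were called higher, and 1.15% were called in either direction. In 5 of the 9 factors (Atf3, Jun, Sox11, Klf6 and Smad1) every I/R library lay above every sham library, which held for 9.23% of tested genes, and in none did every I/R library lie below every sham library, as in 7.83% of tested genes. Klf7, Stat3, Myc and Creb1 overlapped between the groups. The median log2 fold change over the 9 factors was 0.39, against 0.00013 over all genes tested. An unadjusted p under 0.05 was found for 5 of the 9, against 10.5% of tested genes. As the 9 were chosen with earlier results of these data known, these shares are a description and not independent evidence.

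**Figure D1:**
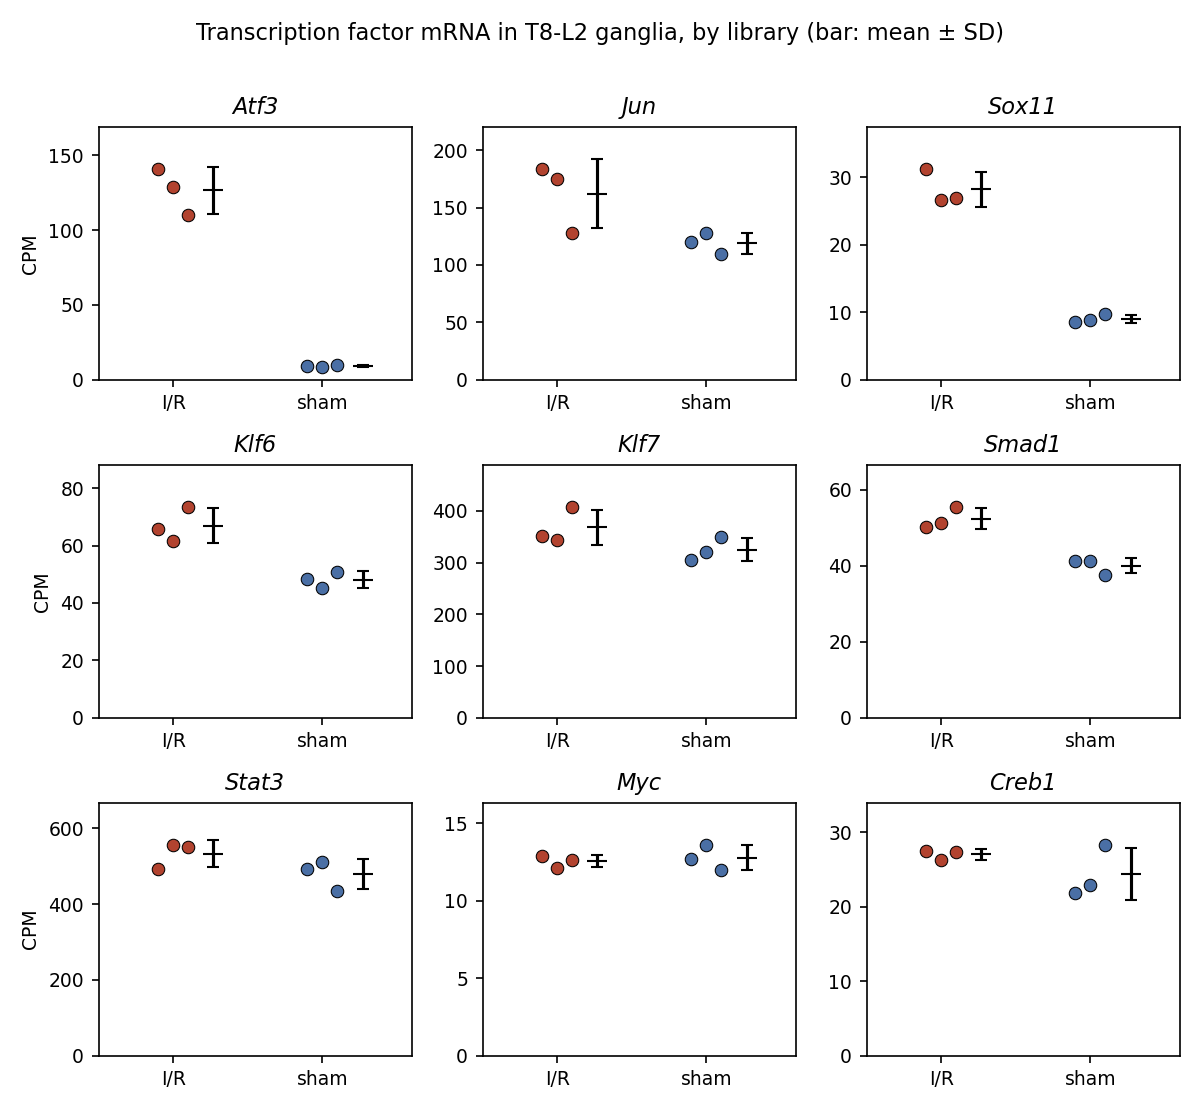
Level of each of the 9 factors in CPM (linear axis from 0), with 1 point per library, I/R on the left and sham on the right of each panel, and a bar for mean ± SD. The 3 I/R points of Atf3 lie between 110 and 141 CPM and its 3 sham points between 8.35 and 9.92 CPM, while the points of Klf7, Stat3, Myc and Creb1 overlap between the groups.

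The stretch just upstream of each gene's start was read for 8 of the 9 factors, all but Myc, from RefSeq sequences of the mouse build GRCm38.p6. It was searched for TGACGTCA, the cAMP response element that CREB, ATF and Jun proteins bind, allowing at most 1 letter to differ. This element reads the same on both strands. The element and the tolerance were chosen after these promoters had been read. Of the 8 promoters, 5 held such a stretch within 250 bases, and 10.6% of the 32851 promoters of that length in the table did. The 5 were those of Atf3, Jun, Sox11, Klf6 and Smad1, and those of Klf7, Stat3 and Creb1 held none. None of the 8 promoters read held the exact element within these 250 bases, and 1.55% of all promoters did. Promoters are shown for the 2 called genes and for Jun and Klf6, which hold the same 8 letters, each 5′ to 3′ on the gene's own strand and ending at the base before the start, with the matching letters in capitals.
Atf3 (chr1:191183334-191183583, minus strand): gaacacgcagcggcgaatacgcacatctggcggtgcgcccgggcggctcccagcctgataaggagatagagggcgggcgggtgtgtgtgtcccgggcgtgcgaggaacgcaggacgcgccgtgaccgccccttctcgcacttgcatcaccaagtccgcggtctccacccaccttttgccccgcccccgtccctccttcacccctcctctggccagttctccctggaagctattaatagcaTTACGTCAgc
Sox11 (chr12:27342719-27342968, minus strand): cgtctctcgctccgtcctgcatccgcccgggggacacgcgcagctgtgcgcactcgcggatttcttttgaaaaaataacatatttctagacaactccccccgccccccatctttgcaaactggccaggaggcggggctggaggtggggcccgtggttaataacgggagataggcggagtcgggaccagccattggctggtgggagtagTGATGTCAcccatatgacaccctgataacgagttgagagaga
Jun (chr4:95052223-95052472, minus strand): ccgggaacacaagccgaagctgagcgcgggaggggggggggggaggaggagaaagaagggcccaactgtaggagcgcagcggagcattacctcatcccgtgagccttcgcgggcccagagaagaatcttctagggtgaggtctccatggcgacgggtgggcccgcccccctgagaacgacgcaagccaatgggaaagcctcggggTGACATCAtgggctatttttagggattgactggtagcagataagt
Klf6 (chr13:5861239-5861488, plus strand): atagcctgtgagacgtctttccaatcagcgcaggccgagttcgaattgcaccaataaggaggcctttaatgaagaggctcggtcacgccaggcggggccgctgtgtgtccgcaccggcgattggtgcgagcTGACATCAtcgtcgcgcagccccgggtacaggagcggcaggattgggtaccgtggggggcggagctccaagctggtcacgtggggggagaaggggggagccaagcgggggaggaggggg
The matching letters were TTACGTCA in Atf3, between 10 and 3 bases before the start, and TGATGTCA in Sox11, between 42 and 35 bases before it. Jun and Klf6 both held TGACATCA, which is the Sox11 stretch read on the other strand, at 45 to 38 and at 119 to 112 bases before the start. Smad1 held TGACGCCA between 16 and 9 bases before its start. Counted by gene, 15 of 82 genes called higher (18.3%) and 1 of 50 genes called lower (2.0%) had a match. The genes called higher include Atf3 and Sox11, whose promoters had been read when the element was chosen. Their share is therefore not independent evidence. Among relatives of the 9 factors, 11 of 62 (17.7%) had a match. By gene the share was 12.7% of the genes tested (1502 of 11796) and 23.8% of the effector genes (5 of 21) described further on. The AP-1 element TGANTCA, searched on both strands, was in none of the 8 promoters and in 6.75% of all. A match is a description of letters, and binding was not measured.

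Atf3, a leucine zipper factor that is scarce in intact sensory neurons and induced by axon damage, had 141, 129 and 110 CPM in I/R 1 to 3, against 9.23, 8.35 and 9.92 CPM in sham 1 to 3. All I/R libraries stood far above all sham libraries. The log2 fold change was 3.79 ± 0.13 (SE, adjusted p = 6.1e-07 in edgeR's test), with a 95% interval of 3.49 to 4.08. By p, Atf3 ranked 2 of all 16346 genes tested, and by fold change it ranked 14. The call remained in all 15 alternatives, with log2 fold changes of 3.70 to 3.94. These alternatives called 1.16% of their genes with RLE scaling, 1.16% with upper-quartile scaling, 1.91% with DESeq2, 1.08% with limma-voom, 1.68% without the filter on low counts and 1.17% with a stricter one. They called 0.385% with a replicate block, 0.459% with a muscle covariate and 0.185% with sham 2 as the only sham library. Leaving out I/R 1, 2 or 3 gave 1.02%, 0.52% and 0.589%, and leaving out sham 1, 2 or 3 gave 0.558%, 1.09% and 0.806%. In whole ganglia, more cells that express a gene and more RNA per cell cannot be told apart, and this holds for each level given here.

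Jun, the leucine zipper protein that pairs with Atf3 and with Fos proteins in AP-1 dimers, had 184, 175 and 127.6 CPM in I/R 1 to 3 and 120, 127.5 and 109 CPM in sham 1 to 3. I/R 1 and I/R 2 were high, while I/R 3 stood level with sham 2. The log2 fold change was 0.45 ± 0.14 (adjusted p = 0.24), with a 95% interval of 0.14 to 0.75, and Jun was not called. Without I/R 3 the value was 0.59 (adjusted p = 0.058). Without the filter on low counts, a fit that called 1.68% of its genes, Jun passed (adjusted p = 0.043). Among the relatives, Jund had 126, 99.0 and 52.4 CPM in I/R 1 to 3 and 80.1, 64.0 and 54.8 CPM in sham 1 to 3. Junb, chosen after its values were seen, had 24.8, 19.8 and 12.1 CPM in I/R 1 to 3 and 17.9, 16.3 and 15.6 CPM in sham 1 to 3. Jun, Junb and Jund were each lowest in I/R 3 among the I/R libraries, which was not particular to them. Genes outside the family, such as Hspb1 and Uchl1, were also lowest in I/R 3, while Klf6, Klf7 and Smad1 were highest there.

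Sox11, a factor of the SOX family with a high mobility group box that is active in developing and regrowing neurons, had 31.2, 26.6 and 26.9 CPM in I/R 1 to 3, against 8.64, 8.80 and 9.72 CPM in sham 1 to 3. The groups were far apart and each was narrow. The log2 fold change was 1.64 ± 0.12 (adjusted p = 0.00012), with a 95% interval of 1.37 to 1.91. The call remained in all 15 alternatives, with log2 fold changes of 1.56 to 1.69. Sox4, the closest relative of Sox11, had 31.1, 25.5 and 19.8 CPM in I/R 1 to 3 and 28.3, 25.3 and 30.5 CPM in sham 1 to 3, and overlapped.

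Klf6 and Klf7 are a pair of Kruppel-like zinc finger factors known to favor axon growth. Klf6 had 65.7, 61.7 and 73.5 CPM in I/R 1 to 3, against 48.3, 45.1 and 50.9 CPM in sham 1 to 3. Its groups did not overlap, and the log2 fold change of 0.48 ± 0.10 (95% interval 0.25 to 0.71) just missed the threshold in edgeR's test (adjusted p = 0.066). DESeq2 called it (adjusted p = 0.011), in a fit that called 1.91% of genes, and so did edgeR without the filter on low counts (adjusted p = 0.015). Klf6 was called in only these 2 of the 15 alternatives. Whichever library was left out, it was not called (adjusted p = 0.081 to 0.29 in edgeR's test). Klf7 had 352, 344 and 408 CPM in I/R 1 to 3, against 304, 322 and 349 CPM in sham 1 to 3. Only I/R 3 and I/R 1 stood above sham 3, and the log2 fold change was 0.18 ± 0.10 (adjusted p = 0.59), with a 95% interval of -0.04 to 0.40.

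Smad1 and Stat3 carry signals from receptors at the cell surface to the nucleus. Smad1, the BMP-activated SMAD protein, had 50.3, 51.3 and 55.5 CPM in I/R 1 to 3, against 41.2, 41.2 and 37.7 CPM in sham 1 to 3. Its groups did not overlap, but with a log2 fold change of 0.39 ± 0.09 (95% interval 0.18 to 0.60) it was not called (adjusted p = 0.10, and 0.070 to 0.82 over the alternatives). Stat3, the factor activated by gp130 cytokines, had 491, 556 and 550 CPM in I/R 1 to 3, against 494, 511 and 434 CPM in sham 1 to 3. I/R 1 lay within the sham range, and the log2 fold change was 0.15 ± 0.10 (adjusted p = 0.65), with a 95% interval of -0.07 to 0.37.

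Myc and Creb1 showed no call in any of the 15 alternatives. Myc, a helix-loop-helix factor of cell growth, had 12.9, 12.1 and 12.6 CPM in I/R 1 to 3 and 12.7, 13.6 and 11.98 CPM in sham 1 to 3. Its log2 fold change was -0.03 ± 0.11 (adjusted p = 0.95), with a 95% interval of -0.28 to 0.22. Creb1, which mediates the effect of cAMP on growth genes, had 27.5, 26.2 and 27.3 CPM in I/R 1 to 3 and 21.9, 23.0 and 28.3 CPM in sham 1 to 3. Sham 3 was above all I/R libraries, and the log2 fold change was 0.15 ± 0.12 (adjusted p = 0.72), with a 95% interval of -0.12 to 0.42.

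**Figure D2:**
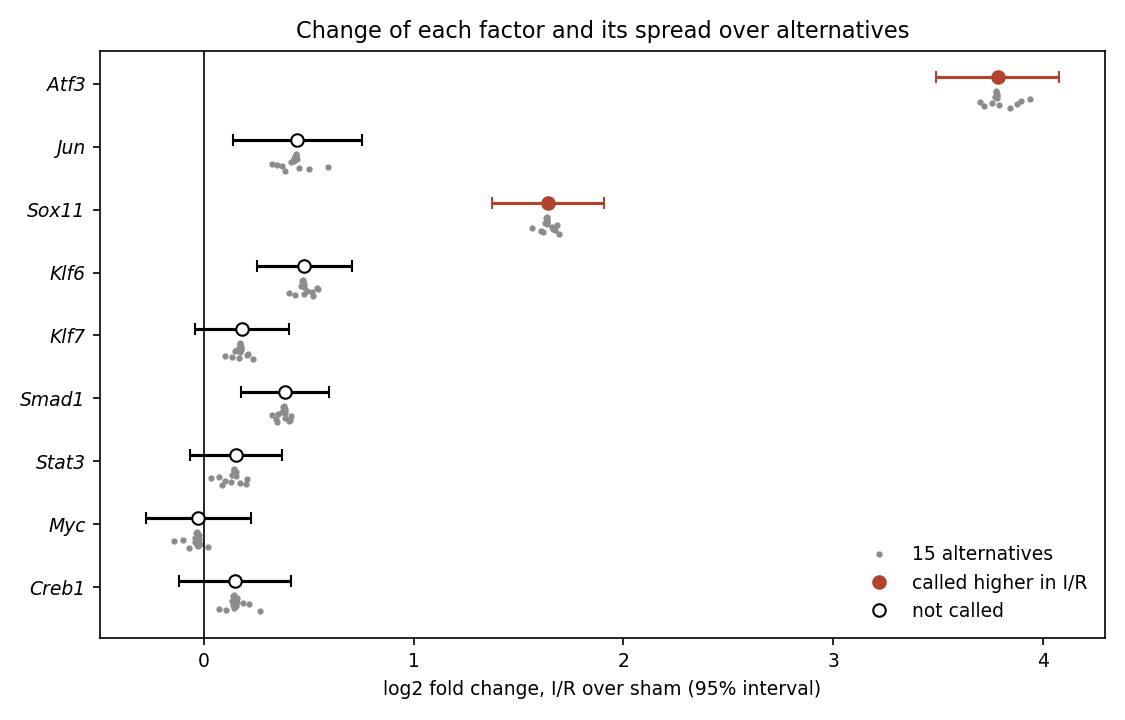
Log2 fold change of each factor, I/R over sham, with its 95% interval (circle and bar, filled red where called), and below it the values from 15 alternative fits (grey points). Atf3 at 3.79 and Sox11 at 1.64 stand clear of the other 7 factors, which lie between -0.03 and 0.48.

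Levels of different genes were set side by side per length, as TPM, which divides counts by the deposited gene lengths and scales every library to the same total. In I/R ganglia Stat3 was highest at 304 ± 35.4 TPM, followed by Atf3 at 163 ± 11.6, Jun at 130 ± 18.8 and Klf7 at 124 ± 17.6 TPM (SD, n = 3). In sham ganglia Stat3 was also highest at 271 ± 31.3 TPM, followed by Klf7 at 108 ± 4.85 and Jun at 95.1 ± 10.3 TPM, and Atf3 came in place 8 with 11.7 ± 0.68 TPM. Creb1 (55.2 ± 3.07 TPM in I/R and 49.2 ± 5.35 TPM in sham), Smad1 (43.5 ± 4.58 in I/R and 32.9 ± 2.68 in sham), Klf6 (40.8 ± 5.36 in I/R and 28.9 ± 0.95 in sham) and Myc (13.8 ± 0.73 in I/R and 13.9 ± 1.31 in sham) kept the same order among themselves in both groups. Sox11 was lowest in both, at 8.71 ± 0.41 TPM in I/R and 2.77 ± 0.093 TPM in sham ganglia. In both groups the libraries of Jun and Klf7 overlapped, as did those of Smad1 and Klf6 in I/R, so neither pair has a settled order there. The position of Creb1 rests on a deposited length of 1260 bases.

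**Figure D3:**
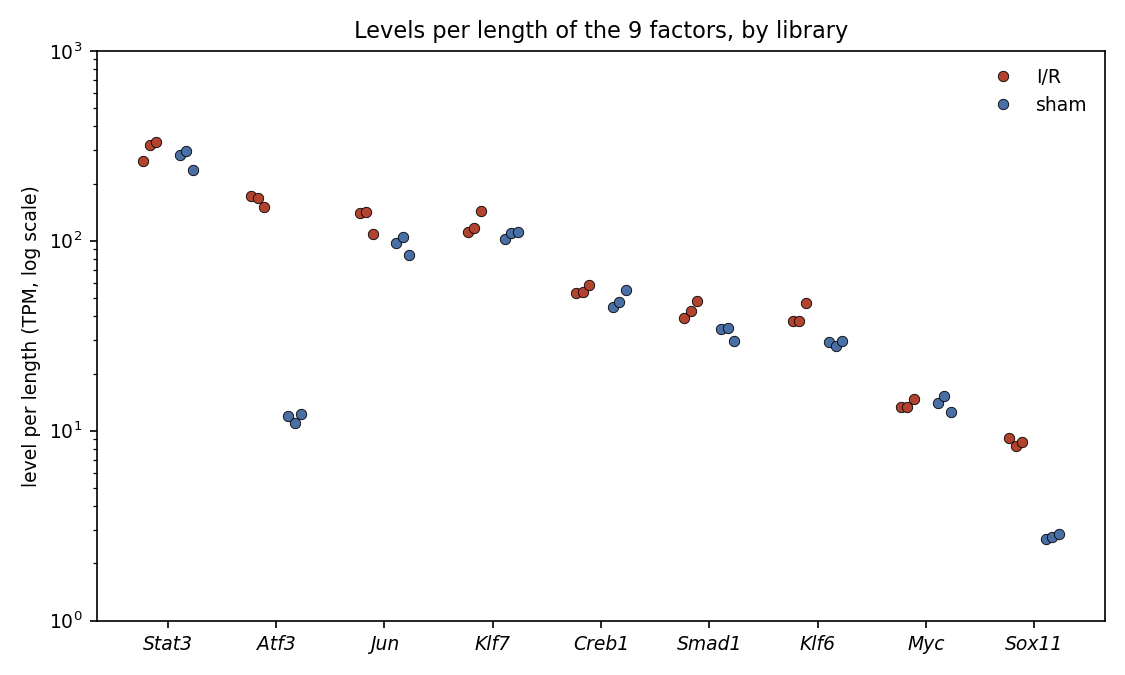
Level per length (TPM, log scale) of the 9 factors in each library, I/R in red left of sham in blue, ordered by the I/R mean. Atf3 stands in place 2 in I/R and in place 8 in sham, and Sox11 is lowest in both groups.

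The 9 factors were then compared with their relatives. Of 81 relatives from the same families, 72 were tested and 1 was called: Fosl2, a Fos protein of AP-1 dimers. That count is near the share of all genes tested that were called, 1.15%. Fosl2 had 25.4, 24.0 and 26.9 CPM in I/R 1 to 3, against 14.9, 13.3 and 13.8 CPM in sham 1 to 3 (log2 fold change 0.86 ± 0.11, adjusted p = 0.0040). The call of Fosl2 was lost with sham 2 alone against I/R and with the muscle level as a covariate. All I/R values lay above all sham values in 8 of the 72 relatives, against 9.23% of all genes tested, and below them in 4 (Sox6, Sox8, Smad3 and Creb3l1), against 7.83%. The median log2 fold change of the 72 was 0.05. A log2 fold change above 0 was found in 45 of the 72 relatives, against 8177 of all 16346 genes tested. By family these were 9 of 15 in AP-1 and ATF, 7 of 12 in SOX and 3 of 7 in SMAD. They were 3 of 5 in STAT, 5 of 10 in MYC and MAX, 7 of 11 in CREB and 11 of 12 in KLF. Klf9, which is known to restrain axon growth, came to 0.46 ± 0.10 on that scale (adjusted p = 0.071, and 0.039 without sham 3), and Klf15 to 0.60 ± 0.15 (adjusted p = 0.11). None of the 12 tested KLF relatives was called with all 6 libraries in edgeR's main test.

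Within each of the other families, the genes of smallest p reported here were Mxi1 (0.34, adjusted p = 0.24) and Mga (0.21, 0.55) of the MYC and MAX network, and Sox6 (-0.41, 0.36) and Sox8 (-0.46, 0.43). For the SMAD, STAT and CREB families they were Smad3 (-0.31, adjusted p = 0.48) and Smad7 (-0.37, 0.56), Stat5a (0.35, 0.40), and Creb3l1 (-0.39, 0.42) with the CREB coactivator Crtc2 (0.18, 0.64). Their values are log2 fold changes, and no gene of the SOX, SMAD, STAT, MYC or CREB lists besides Sox11 was called in edgeR's main test.

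**Figure D4:**
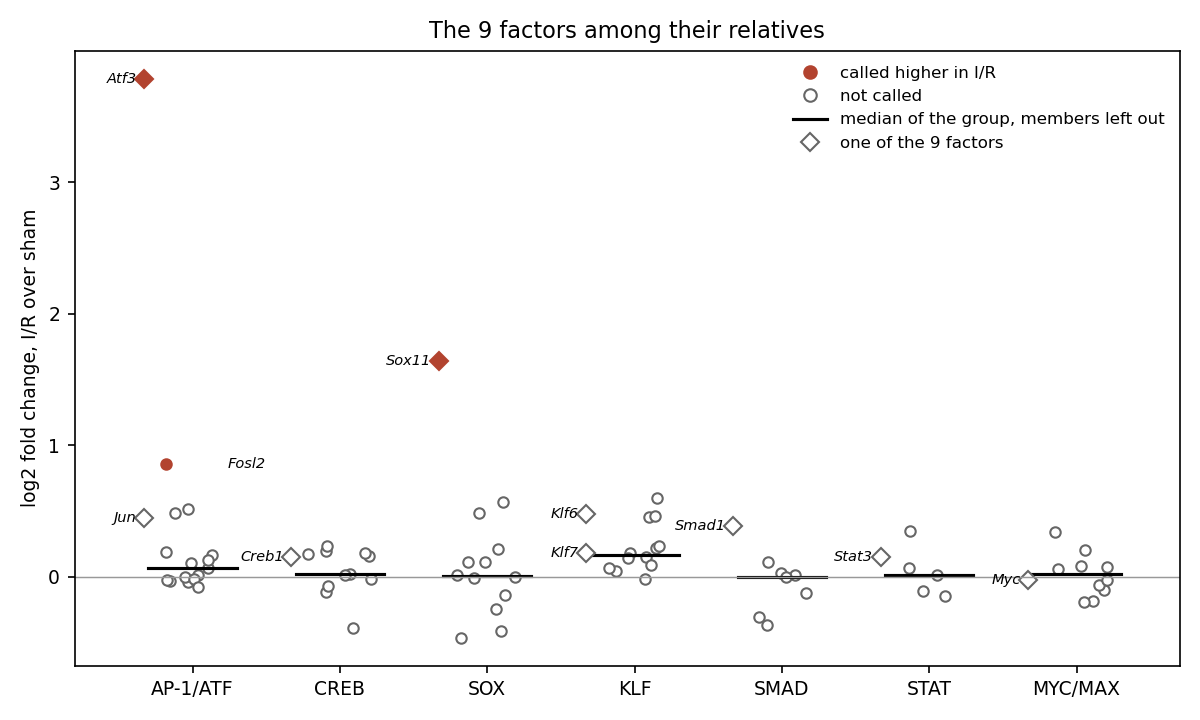
Log2 fold change, I/R over sham, of the 9 factors (diamonds) and of the 72 tested relatives (circles) by family, red where called and with a line at the median of the relatives. Atf3, Sox11 and Fosl2 are the called genes, and the other points lie between -0.46 and 0.60.

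Whether a factor responded more than a relative of its family, not always the closest one, was tested over 9 pairs. It was an exact two-sided permutation test on the log2 ratio of the CPM of the 2 genes within each library. With 3 libraries against 3 the smallest p this test allows is 0.1, so no pair could pass. The ratio Atf3/Atf2 was 1.40, 1.23 and 0.93 in I/R 1 to 3 and -2.58, -2.64 and -2.68 in sham 1 to 3, a difference of 3.82 (exact permutation p = 0.1, 0.18 adjusted over the pairs). Atf2 is a leucine zipper factor that is present without injury, at 33.8 TPM in I/R and 34.3 TPM in sham ganglia. Per length, then, Atf3 stood above Atf2 in I/R ganglia and below it in sham ganglia. The ratio Sox11/Sox4 was 0.17 ± 0.24 in I/R and -1.63 ± 0.10 in sham (SD, n = 3), a difference of 1.80, and Klf6/Klf7 was -2.46 ± 0.03 in I/R and -2.76 ± 0.09 in sham, a difference of 0.30. Smad1/Smad5 differed by 0.28. In these 4 pairs all I/R ratios lay above all sham ratios, with the smallest possible p. The ratios Jun/Jund (0.02), Klf6/Klf9 (0.01), Myc/Mycl (-0.09) and Creb1/Crem (-0.04) overlapped between the groups.

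Genes upstream of the factors were set beside all tested genes, of which 1.15% were called and 0.722% were called higher. Of 50 tested genes of the gp130, BMP and DLK pathways, 2 were called, both higher. One of them was Dusp1, a phosphatase that switches off JNK and other kinases, which had 24.3, 21.2 and 21.6 CPM in I/R 1 to 3, against 13.3, 14.1 and 12.03 CPM in sham 1 to 3 (log2 fold change 0.77 ± 0.12, adjusted p = 0.011). Dusp1 was called in 10 of the 15 alternatives: the call did not survive the removal of I/R 2 (adjusted p = 0.063) or sham 1 (0.072), the replicate block (0.080), the muscle covariate (0.23) or sham 2 alone (0.42). In the gp130 list 8 of 17 tested genes had every I/R library above every sham library and 2 (Lif and Il11ra1) had every I/R library below, against 9.23% and 7.83% of all genes tested, and the median was 0.24. The 8 include Socs3, a feedback inhibitor that Stat3 induces, at 13.4 ± 2.47 CPM in I/R and 9.32 ± 0.65 CPM in sham (adjusted p = 0.20), a gene chosen after its values were seen. The 16 tested BMP genes, of which 2 lay wholly above sham and 3 wholly below, had a median of -0.12, with Bmp5 at 2.23 ± 0.15 CPM in I/R and 4.31 ± 1.13 CPM in sham (adjusted p = 0.098) and Id2, an inhibitory factor that BMP signals induce, at 11.1 ± 0.74 CPM in I/R and 14.8 ± 1.04 CPM in sham (adjusted p = 0.19). The 17 tested DLK and JNK genes, of which 3 lay wholly above sham and 0 wholly below, had a median of 0.0062.

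Effector genes carry out axon regrowth and the injury response. Of 28 tested, 18 were called, all higher, with a median log2 fold change of 1.13. Of all genes tested, 1.15% were called and 0.722% were called higher, with a median of 0.00013. The effector list was drawn up with earlier results of these libraries known, so its direction is not independent evidence. The smallest p belonged to Sprr1a, Ecel1, Cckbr, Gpr151, Csf1 and Gal, with log2 fold changes of 7.46, 3.90, 3.55, 4.09, 1.41 and 2.48. Gap43, the growth cone protein long used as a marker of regrowth and chosen here after its values were seen, had 295, 280 and 240 CPM in I/R 1 to 3, against 190, 197 and 213 CPM in sham 1 to 3. Its groups did not overlap, but it was not called (0.44 ± 0.10, adjusted p = 0.090).

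**Figure D5:**
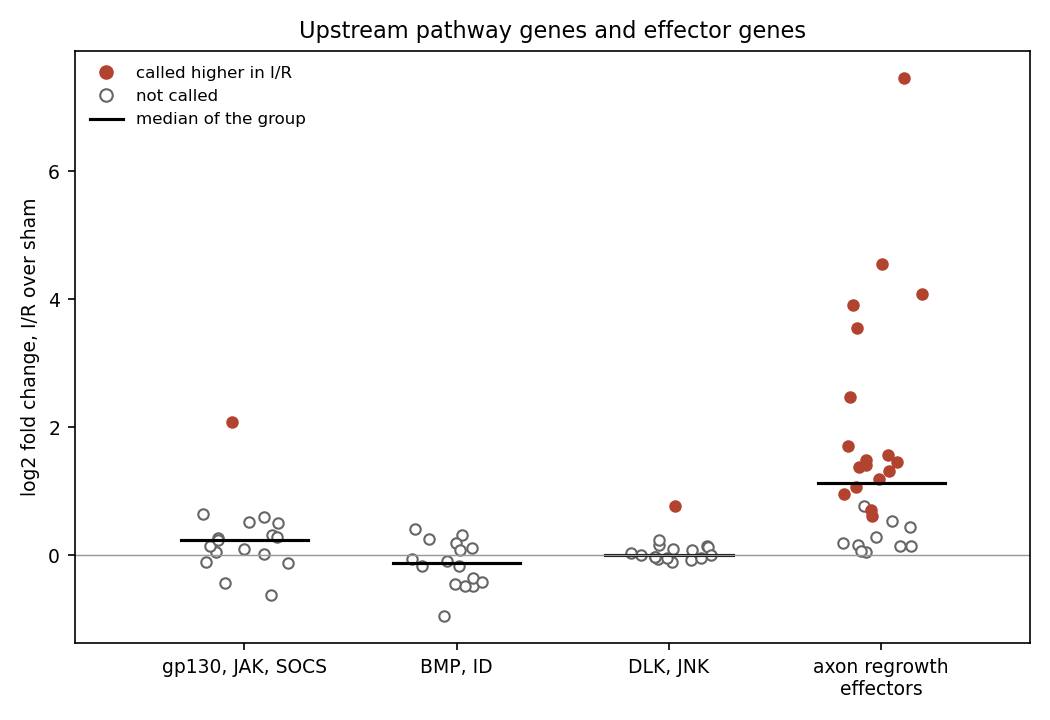
Log2 fold change, I/R over sham, of tested genes of the 3 upstream pathways and of the effector list, red where called and with a line at each median. The upstream medians lie between -0.12 and 0.24 and that of the effector list at 1.13, a list drawn up with earlier results known.

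The genes most like each called factor were sought among the 13526 genes that carry a name and average 1 CPM or more, by the root mean square difference of their centered log2 CPM over the 6 libraries. Nearest to Atf3 were Npy, which encodes neuropeptide Y (0.23), Fgf3, a fibroblast growth factor (0.25), and Cckbr, a cholecystokinin receptor (0.27). Their log2 fold changes were 4.55, 3.62 and 3.55. The log2 CPM used a prior count of 2, which shrinks steps at low counts. Npy had 5, 4 and 5 counts in sham 1 to 3, and Cckbr had 10, 13 and 13. The part of low counts in the likeness to Atf3 was not tested. Nearest to Sox11 were Mmp16, a membrane-bound matrix protease, Csf1, which encodes a macrophage growth factor, and Nts, the neurotensin gene, at differences of 0.17, 0.18 and 0.18. Their log2 fold changes were 1.84, 1.41 and 1.46. The 6 libraries form 2 groups, so a similar step between the groups is enough for a small difference.

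Among all 724 tested genes that the deposited Gene Ontology column names as DNA-binding transcription factors, a set added after seeing the data, 9 were called (1.24%, against 1.15% of all genes tested). Atf3 had the largest log2 fold change of these and Sox11 the 3rd largest, with Hif3a, a hypoxia-inducible factor, between them at 5.90 ± 1.21 CPM in I/R and 1.09 ± 0.42 CPM in sham. The other called factors were Fosl2, Csrnp1 (0.94), Bach1 (0.53) and Nfil3 (0.69), which were higher, and Dbp (-0.97) and Aebp1 (-0.99), which were lower. Bach1 (adjusted p 0.050 to 0.16) and Nfil3 (0.062 to 0.24) lost their calls whichever library was left out, Csrnp1 in 5 of the 6 cases, and Dbp and Aebp1 in 3 of 6 each. The names outside the families followed here were chosen after their values were seen.

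Markers of several cell types differed between the groups beside these results. The 8 sensory neuron markers, summed, stood at 8638 to 10320 CPM in I/R and 9010 to 9476 CPM in sham, with none called and none at 0. The 8 fibroblast and meningeal markers stood at 548 to 666 CPM in I/R and 996 to 1205 CPM in sham, with 7 called lower, and the 7 Schwann cell markers at 5494 to 6184 CPM in I/R and 6477 to 6761 CPM in sham, with none called. The 8 macrophage markers stood at 53.2 to 55.2 CPM in I/R and 44.8 to 47.2 CPM in sham, with none called, and the 6 red cell markers at 53.7 to 88.0 CPM in I/R and 183 to 274 CPM in sham, with 5 called lower. The 6 satellite glia markers overlapped, at 2431 to 3315 CPM in I/R and 3029 to 3383 CPM in sham, with 1 called lower (Fabp7). The 5 cord and oligodendrocyte markers stood at 4.003 to 7.02 CPM in I/R and 14.6 to 31.2 CPM in sham, where sham 1 and sham 3 were highest. Of these Cldn11 was called lower, with 10.2, 11.4 and 11.7 CPM in sham 1 to 3. Cldn11 made up most of the sum in sham 2, where Mobp, at 3.20 CPM, lay within its I/R range of 1.68 to 3.53 CPM. Mog had 1, 0 and 0 counts in I/R 1 to 3 and 32, 0 and 11 counts in sham 1 to 3. The 6 lymphocyte markers, of which 2 were tested, stood at 13.3 to 17.2 CPM in I/R and 22.3 to 26.8 CPM in sham. Ighm, which was called lower, made up most of the sum, at 14.1 ± 1.72 CPM in I/R and 23.3 ± 2.35 CPM in sham. Cd3e had 3, 10 and 8 counts in I/R 1 to 3 and 2, 1 and 3 in sham 1 to 3. Cd79a overlapped between the groups. No marker of any list was at 0 in every library, and the part of these cell types in the small differences of Jun, Klf6 and Smad1 was not tested. With sham 2 alone against I/R, the log2 fold change was 3.90 for Atf3 (adjusted p = 0.0011) and 1.66 for Sox11 (adjusted p = 0.031). The spread in that fit comes from the 3 I/R libraries alone, and sham 2 is assumed to vary like them.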

How the data were processed

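RNA was extracted with TRIzol and made into libraries with a stranded Illumina mRNA kit, per the labels' protocols, with 1 library per sample and 3 samples per group. Per the submitters' processing notes, HISAT2, StringTie, fastp and the build GRCm39 were used, in roles and versions not stated, and which program counted, and with which strand setting, is likewise not stated. The authors deposited expected counts per gene, not scaled to depth, of which 10.7% to 11.5% per library were not whole, and they were rounded before testing. Library totals of 19092650 to 22010227 put 3 counts, the limit that a count of 0 allows, at 0.14 to 0.16 CPM, which covers counting error only. Whether samples are separate mice is taken from the design text, and p-values measure the spread between these libraries. No pair of libraries within a group agreed within sampling noise (chi-square per degree of freedom 4.05 to 27.9).

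The quasi-likelihood test of edgeR 4.0.16 (R 4.3.3, TMM, the package's low count filter, Benjamini-Hochberg over 16346 genes) was tested on simulated data. There it recovered 24 of 50 genes changed 1.5-fold, 39 of 50 changed 2-fold and 50 of 50 changed 4-fold. Of its 181 calls, 18 were false. Standard errors were the absolute log2 fold change divided by the square root of F. CPM used TMM-scaled library sizes, and TPM used the deposited lengths. The members, gene lists and named genes were chosen with earlier results of these data known. The naming rule took all members, called genes of each list (up to 6 by p, or else the 2 of smallest p), the 9 pairs and the 3 genes nearest each called member; 1 pair and 1 called gene are not reported here. Alternatives were RLE and upper-quartile scaling, DESeq2 1.42.0, limma-voom (limma 3.58.1), 2 other filters, a replicate block, a muscle covariate, sham 2 alone, and leaving out each library.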

Additional observations from a re-analysis of the deposited data

How the results depend on the processing

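Atf3 and Sox11 stayed called higher in all 15 alternatives, and Klf7, Smad1, Stat3, Myc and Creb1 in none. The count of called members was 2 whichever library was left out and 4 without the filter on low counts, where Jun (0.44) and Klf6 (0.47) passed, and Klf6 (0.47) also passed in DESeq2. Myc ranged from -0.071 to 0.020 without 1 library, the highest value without sham 2. Of all genes, 312 were called by DESeq2, 494 without the filter, 63 with the replicate block, 75 with the muscle covariate, 32 with sham 2 alone, and 87 (without I/R 2) to 181 without 1 library, with 98 without I/R 3 and 93 without sham 1. Called relatives numbered 2 in DESeq2, 4 without the filter, 0 with the muscle covariate or sham 2 alone, and 1 to 2 without 1 library. Called upstream genes numbered 0 with the block, the muscle covariate or sham 2 alone and 1 to 2 without 1 library, and called effectors 11 with the block, 9 with sham 2 alone and 15 to 18 without 1 library. The share of higher among all calls was 62.8%, but 52% without the filter and 78.1% with sham 2 alone, and for other scalings 61.4% to 62.4%. Ratio differences that overlapped changed sign without single libraries: Jun/Jund ranged from -0.18 to 0.19 (below 0 without I/R 3 or sham 1), Klf6/Klf9 from -0.080 to 0.081 (below 0 without I/R 3, sham 2 or sham 3), Myc/Mycl from -0.28 to 0.083 (above 0 without I/R 3), and Creb1/Crem from -0.14 to 0.074 (above 0 without I/R 2 or sham 3). The causes were not tested. Equal replicate numbers are not stated to pair the mice. Correlations of deviations between equal numbers were -0.11, 0.14 and -0.12, and 2 of 6 libraries correlated best with their own number. With 3 libraries a group, these values cannot decide whether the mice were paired. Among members the block changed no call. Precision is limited by 3 libraries a group.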
